A study of Mus musculus with 12 samples.

Results

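Granulocyte and monocyte genes were followed in bone marrow taken from mice that carried transplanted T-lineage acute lymphoblastic leukemia (T-ALL, which arises from developing T cells). The members were 40 gene symbols, chosen as markers of neutrophil maturation and of monocytes, and 39 of them matched a row name among the 38339 genes of the deposited table. The 40th, Adgre1, which encodes the macrophage antigen F4/80, is listed there under its older name Emr1, was found by its Ensembl identifier alone and is not counted below. The 39 genes fall into 6 of the primary granule stage, 7 of the secondary granules, 13 of mature neutrophils and 13 of monocytes and macrophages.

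The study used 6 primary mouse leukemias, numbered here from 1 (code 73A-46B) and 2 (73M-19A) through 3 (code 78A-143B) and 4 (2M-127B) to 5 (code 20M-116B) and 6 (JW-81-59B), each grown in recipient mice, and the strain background given for every sample is C57BL/6 x 129Sv/Jae F1. When moribund, 1 recipient of each leukemia was given vehicle (VEH) and 1 was given dexamethasone (DEX, a synthetic glucocorticoid), and marrow was collected 4 hours later. There were thus 6 VEH and 6 DEX libraries of total RNA in 6 pairs, and each value of a leukemia under 1 treatment came from a single recipient. Age, dose, vehicle and the driver lesions of the leukemias are not given in the sources used here. The marrow was cleared of red cells but no sort of leukemia cells is described, so the RNA of the recipient's remaining blood cells was sequenced with that of the leukemia.

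Neutrophils mature in the marrow through stages that each fill a new set of granules. Promyelocytes make the primary granule proteins myeloperoxidase, neutrophil elastase, proteinase 3 and cathepsin G, and myelocytes then make the secondary granule proteins lactoferrin and cathelicidin, a step that needs the transcription factor C/EBP epsilon. Gelatinase, the calprotectin chains S100A8 and S100A9 and the receptors for chemokines and formyl peptides mark later cells. Monocytes arise from a related progenitor and carry the receptors for CSF1 and CCL2, and glucocorticoids are known to change the number, release and gene expression of both cell types.

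Parts of 4 promoters are shown as examples from neutrophil granule genes: Ltf fell with DEX, as given below, and Ngp, Mmp8 and Mpo did not pass the test. They are taken from RefSeq on build GRCm38.p6, run 5′ to 3′ on the strand of the gene, and leave out bases within the GENCODE model of the gene. Capitals mark matches to the C/EBP letters TTGCNNAA or to the PU.1 letters AGAGGAAG on either strand. The Ltf stretch is chr9:111019131-111019270 (plus strand), with its match 75 to 68 bases before the RefSeq start. The Ngp stretch is chr9:110419607-110419746 (plus strand), with its match 138 to 131 bases before the start. The Mmp8 stretch is chr9:7558289-7558428 (plus strand), with its match 19 to 12 bases before the start. The Mpo stretch is chr11:87793534-87793580 (plus strand), with its PU.1 matches in the stretch farthest from the start, the first at 248 to 241 bases before it.
Ltf: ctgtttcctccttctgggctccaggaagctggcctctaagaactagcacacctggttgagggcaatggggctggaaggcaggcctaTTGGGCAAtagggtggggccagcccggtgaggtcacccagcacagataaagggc
Ngp: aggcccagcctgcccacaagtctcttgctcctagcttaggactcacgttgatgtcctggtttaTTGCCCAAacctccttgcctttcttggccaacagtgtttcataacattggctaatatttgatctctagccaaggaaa
Mmp8: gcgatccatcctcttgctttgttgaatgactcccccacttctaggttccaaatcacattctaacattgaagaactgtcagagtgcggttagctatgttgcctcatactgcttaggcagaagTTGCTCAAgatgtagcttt
Mpo: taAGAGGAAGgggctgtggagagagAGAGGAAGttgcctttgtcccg

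A promoter window of 300 bases (from RefSeq, 250 of them before the start) was matched for 33 of the 39 genes, and Cebpe, Mmp9, Csf1r, Cd14, Tyrobp and C1qa had no match. The C/EBP letters were in 11 of these 33 windows (33.3%) and in 10.8% of the 27025 windows of all genes. Those 11 genes were Ms4a3, Ltf, Ngp, Lcn2, Mmp8, S100a9, Retnlg, Ly6g, Anxa1, Cd68 and Fcgr3. The PU.1 letters were in 6 of 33 windows (18.2%) against 4.51% of all, and the glucocorticoid receptor letters (ACA and TGT with 3 bases between them, and G and C on the outer sides, each 1 base away) were in 0 of 33 against 0.463%. These are matches of letters, given without a test. Ltf and Mmp8, a pair chosen after the values were seen, both hold the C/EBP letters. The ratio of Mmp8 to Ltf was higher with DEX in 6 of 6 leukemias, as described below, and a link to the letters was not tested.

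Values are FPKM, which divide the fragments of a gene by its length and by the depth of the library, as the authors deposited them, and levels of genes of different length can be set side by side on this scale. The FPKM of a library summed to 1466471 to 2019058, and 11778 to 12970 genes were at 1 FPKM or more. The size of 1 fragment in sparse genes put 11 libraries at about 11700000 to 36300000 fragments, and the depth of the VEH library of leukemia 2 could not be resolved from values with 2 decimals. The T-lineage list (15 genes, such as Cd3e and Lck) summed to 2068 to 3410 FPKM in VEH and to 1905 to 2849 FPKM in DEX, and each of its genes reached 1 FPKM. The 13 genes of mature neutrophils summed to 1745 to 7074 FPKM in VEH and to 1219 to 4215 FPKM in DEX. Most of each of these sums was S100a8 and S100a9, at 3521 and 3232 of the 7074 FPKM in the VEH library of leukemia 1. Transcripts of both the leukemia's lineage and of neutrophils were thus present in every library. In bulk RNA, fewer cells of a type and less RNA per cell cannot be told apart.

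After 4 hours of DEX, 3 members fell: Cebpe, Ltf and Itgam. These were 3 of the 35 members with at least 1 FPKM in 6 or more libraries (8.57%), and 9.28% of all 12358 genes tested fell in the same comparison, so the count is near the background. No member rose with limma, where 4.27% of all genes did, and at an unadjusted p under 0.05, 0 members were higher (9.69% of all genes) and 12 lower (34.3%, against 20.5% of all genes). No member was higher in 6 of 6 leukemias (5.97% of all genes). Of all genes called, 31.5% were higher, 47.5% with median-of-ratios scaling and 12.1% after rescaling to TPM, which moved the median of all genes to -0.17. The median difference over the 35 was -0.38 on the scale of log2(FPKM + 1), the scale of every difference below, and over all genes tested it was -0.05. Each p-value is from limma with the leukemia as a block, Benjamini-Hochberg adjusted over all 12358 genes. Fpr1, Trem1, Cd14 and Cx3cr1 were too low to be tested.

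**Figure D1:**
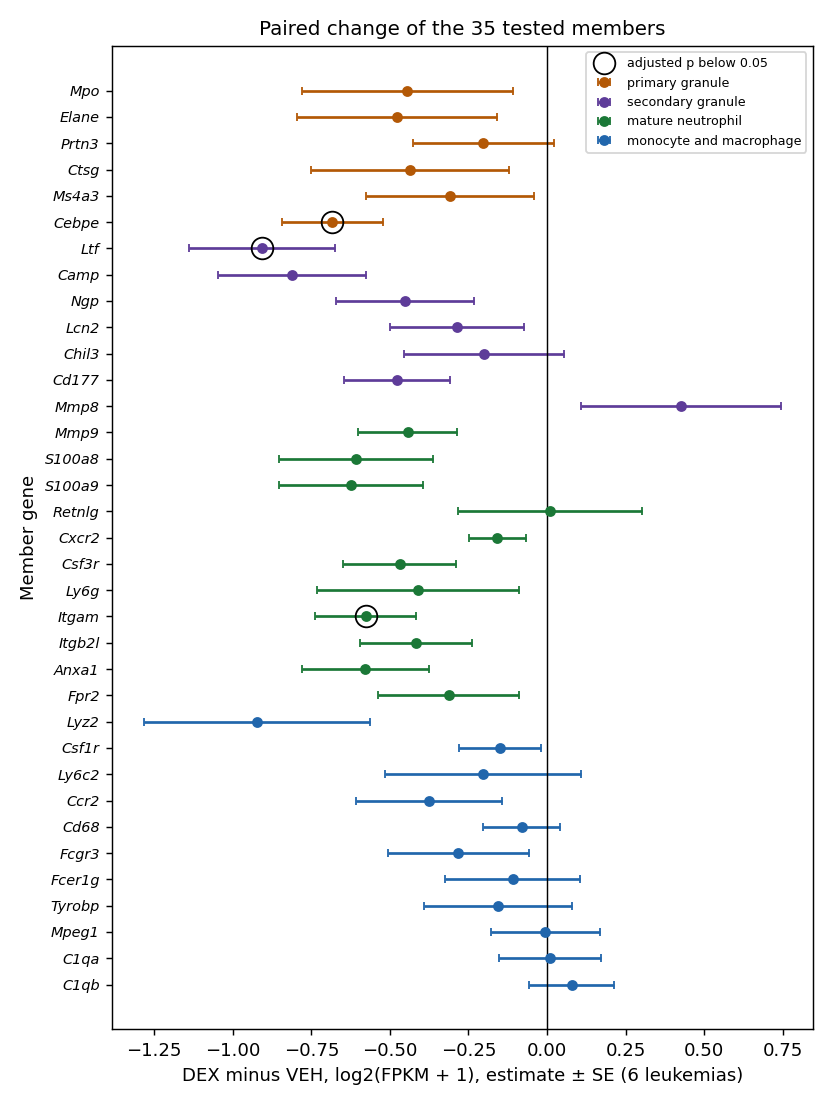
Estimated DEX minus VEH difference of log2(FPKM + 1) for the 35 tested members, with bars of 1 SE over 6 leukemias, coloured by stage; rings mark an adjusted p below 0.05. Cebpe, Ltf and Itgam carry rings, and Mmp8 has the highest estimate.

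The leukemias differed in direction, and within a leukemia the genes of all 4 stages went mostly 1 way, apart from the mature neutrophil genes in leukemia 4. Those were split, with a mean difference of -0.01, where the means of the other stages in leukemia 4 were 0.26 to 0.27. In leukemia 1, 37 of the 39 members were lower with DEX, in leukemia 2, 36, in leukemia 5, 37 and in leukemia 6, 33. In leukemia 3 only 3 were lower and 36 were higher, and in leukemia 4, 11 were lower and 28 higher. Of all genes tested, 51.2% (leukemia 4) to 60.9% (leukemia 2) were lower in a leukemia. The median member differed by -0.47, -0.99, 0.52, 0.22, -0.28 and -0.93 in leukemias 1 to 6. Each of these values compares a pair of recipients, so differences between recipients and the drug cannot be told apart within 1 leukemia.

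**Figure D2:**
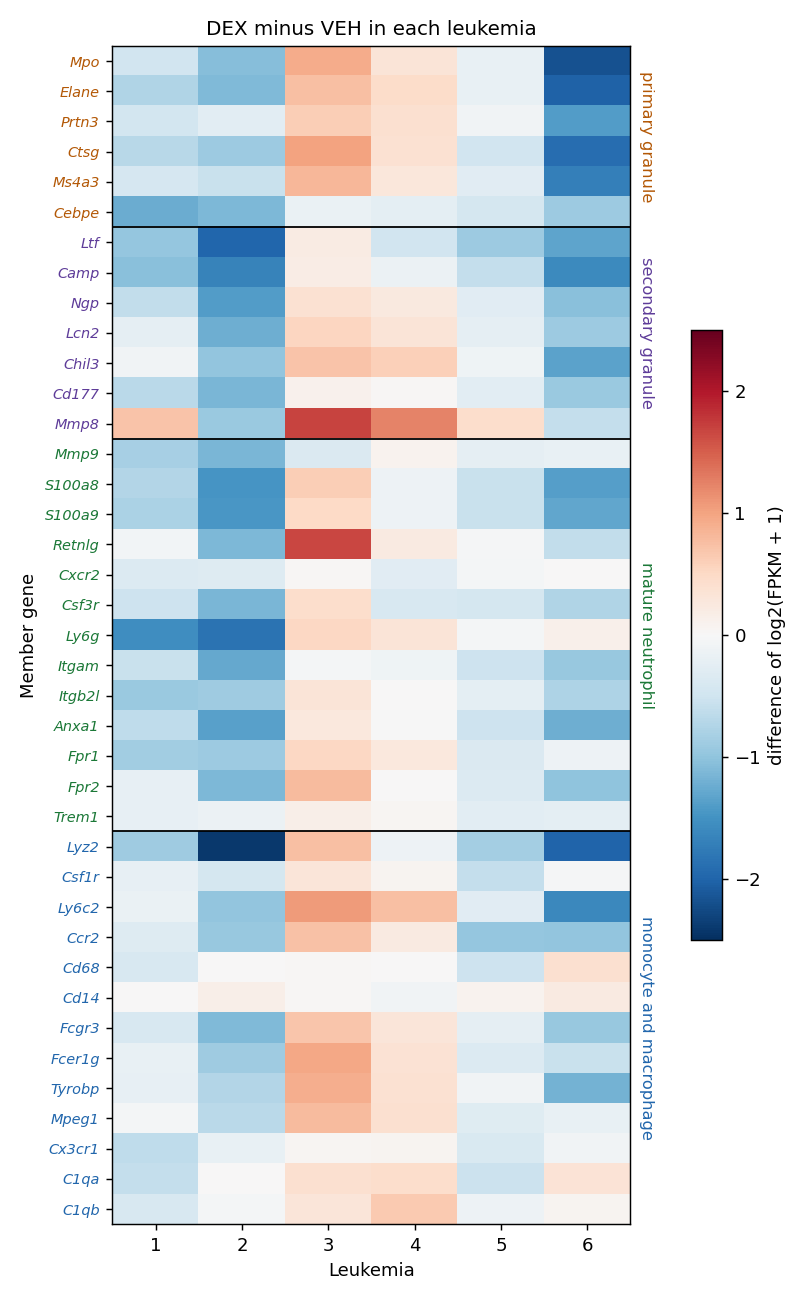
DEX minus VEH difference of log2(FPKM + 1) for each of the 39 members (rows, by stage) in each leukemia (columns); blue is lower and red is higher with DEX. Leukemias 1, 2, 5 and 6 are mostly blue and leukemias 3 and 4 mostly red, and the rows of Cebpe and Itgam are below 0 throughout.

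The erythroid and B-lineage sums were lower with DEX in every leukemia, also in leukemias 3 and 4, where most members were higher. In leukemias 3 to 6, however, 1 gene made up most of each sum, Tfrc of the erythroid list and Ighm of the B-lineage list. The sums of these leukemias thus mainly follow these 2 genes. In leukemia 3 the erythroid sum was 93.8 FPKM in VEH and 88.3 FPKM in DEX, and the B-lineage sum was 54.8 and 49.6 FPKM. Tfrc alone was there at 74.9 and 65.5 FPKM, and Ighm at 52.3 and 46.4 FPKM. The globin genes went both ways in that leukemia, with Hba-a2 at 2.59 and 4.07 FPKM and Hbb-bt at 1.18 and 1.01 FPKM. The VEH library of leukemia 2 had the highest sums of the erythroid list (1352 FPKM, against 79.9 to 444 in the other VEH libraries) and of the B-lineage list (499.6 FPKM, against 54.8 to 167), and its DEX library stood at 214 and 138 FPKM. In leukemia 1 the erythroid sum was 444 FPKM in VEH and 180.1 FPKM in DEX, and the B-lineage sum was 129.95 and 115 FPKM. In leukemia 6 the erythroid sum was similar under both treatments, at 141 and 137 FPKM, and the B-lineage sum was lower with DEX, at 167 and 138 FPKM. Tfrc made up 114.5 and 100.6 FPKM of the first, and Ighm 164.4 and 135.5 FPKM of the second. The other erythroid genes went both ways: the globin genes were higher with DEX, as Hba-a1 (1.42 and 4.59 FPKM), and Alas2 was lower (2.98 and 0.97 FPKM). The 6 primary granule genes of leukemia 6 summed to 83.3 FPKM in VEH and 19.6 FPKM in DEX. Over all pairs, 4.27% of all genes tested rose and 9.28% fell. Of 15 T-lineage genes, 0 rose and 5 fell (median -0.15). Of 8 tested erythroid genes 1 fell, which was Tfrc, and 0 of 2 tested B-lineage genes passed. The part of such shifts in the results on members was not tested. Without leukemia 2, as without leukemia 1, 5 or 6, no member passed the threshold with limma, and at an unadjusted p under 0.05, 4, 5, 8 and 5 of 35 members were lower without leukemia 2, 1, 5 and 6, where 17.3%, 17.2%, 17.0% and 18.6% of all genes were. Without leukemia 3, 9 members were lower (Cebpe, Ltf, Camp, S100a8, S100a9, Csf3r, Itgam, Anxa1 and Lyz2), which is 25.7% of 35 against 7.97% of all genes. Without leukemia 4 only Cebpe was, 2.86% against 4.71% of all genes.

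**Figure D3:**
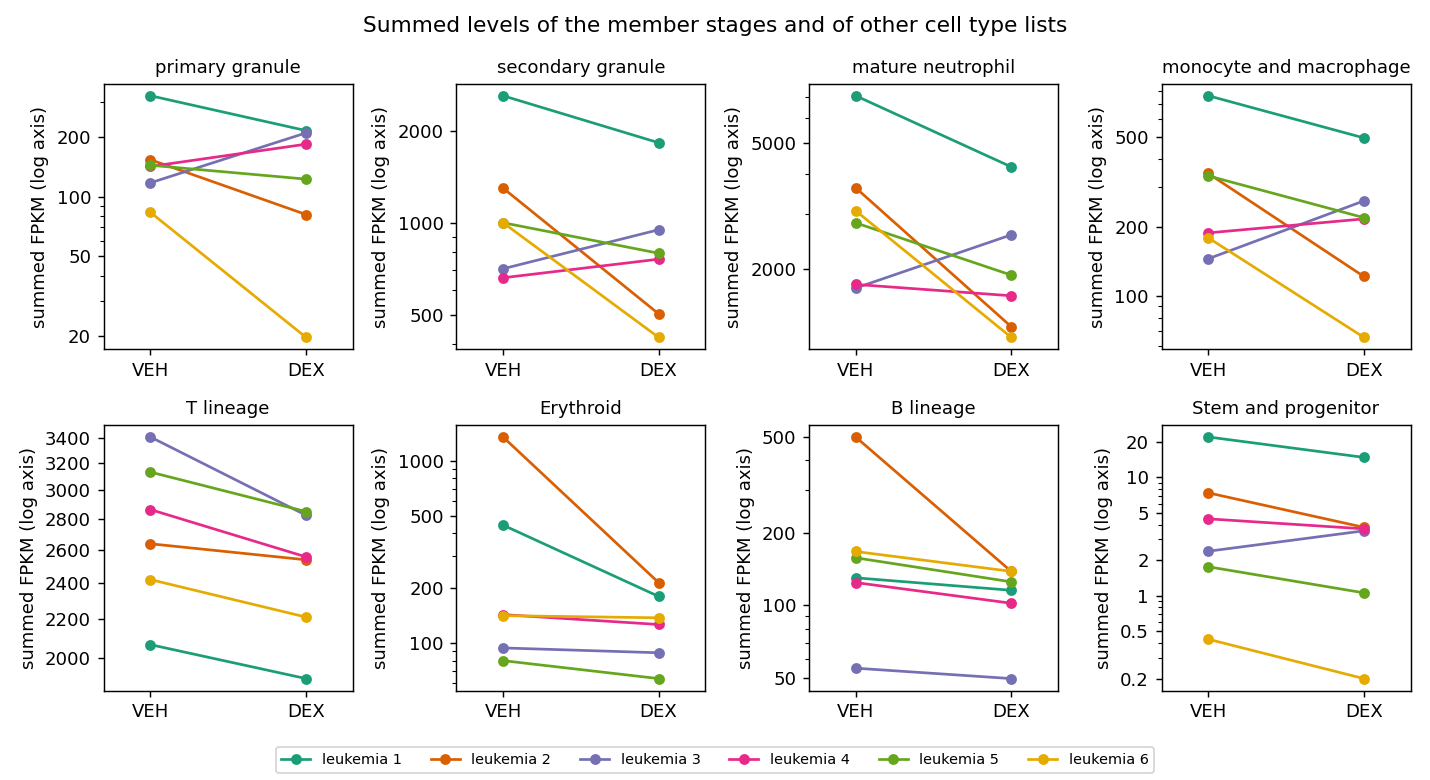
Summed FPKM (log axis) of the 4 member stages and of 4 lists of other cell types in the VEH and DEX library of each leukemia, joined by a line. With DEX the neutrophil sums are lower in leukemias 1, 2, 5 and 6, higher in leukemia 3 and mixed in leukemia 4. The erythroid and B-lineage sums, in leukemias 3 to 6 mostly Tfrc and Ighm, are lower in every leukemia, most in leukemia 2.

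Among the genes of the primary granule stage, Cebpe was the 1 that fell. Cebpe (ENSMUSG00000052435, GRCm38 chromosome 14, 54710360 to 54712174) encodes C/EBP epsilon, which takes promyelocytes to the next stage and was put in this group as the step out of it. In leukemias 1 to 6 it stood at 8.89, 4.19, 3.28, 3.40, 3.64 and 4.00 FPKM in VEH and at 3.20, 1.38, 2.83, 2.74, 2.43 and 1.67 FPKM in DEX. Every DEX library was below every VEH library, which held for 1.34% of all genes tested. It was lower in 6 of 6 leukemias, which held for 13.7% of genes. The mean went from 4.57 ± 2.15 to 2.38 ± 0.709 FPKM (SD, n = 6), a difference of -0.68 ± 0.16 (SE, adjusted p = 0.0265). In leukemias 3 and 4, where most members were higher with DEX, its differences were -0.16 and -0.23. Without leukemia 1, 2, 5 or 6 the adjusted p was 0.0787, 0.0661, 0.0605 and 0.0578, and the difference lay between -0.57 and -0.73.

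The transcripts of the other genes of this stage did not move together with Cebpe in all leukemias. Mpo, which encodes myeloperoxidase (ENSMUSG00000009350, chromosome 11, 87793581 to 87804413), was at 135, 60.7, 41.1, 54.4, 47.0 and 25.1 FPKM in VEH and at 96.9, 28.4, 79.0, 68.5, 41.1 and 4.75 FPKM in DEX. It was higher with DEX in leukemias 3 and 4 and lower in the others, the groups overlapped, and the difference was -0.44 ± 0.34 (SE, adjusted p = 0.41). Elane, the neutrophil elastase gene, was at 70.5, 36.5, 32.3, 35.8, 36.3 and 23.9 FPKM in VEH and at 41.4, 16.4, 54.9, 49.3, 31.9 and 5.14 FPKM in DEX (difference -0.48 ± 0.32, adjusted p = 0.34). Prtn3, its neighbour on chromosome 10 and the proteinase 3 gene, was at 45.55, 22.2, 19.5, 22.5, 24.7 and 14.7 FPKM in VEH and at 32.7, 18.4, 30.25, 29.8, 23.0 and 4.96 FPKM in DEX (difference -0.20 ± 0.22, adjusted p = 0.57). These 3 genes shared an order: the lowest DEX library was that of leukemia 6, the highest VEH library that of leukemia 1, and the groups overlapped. Ctsg (cathepsin G, difference -0.44, adjusted p = 0.39) and Ms4a3, a membrane protein of granulocyte and monocyte progenitors (-0.31, adjusted p = 0.47), had the same sign as Mpo in each leukemia. In leukemia 6 the 5 genes other than Cebpe were lower by between 1.40 (Prtn3) and 2.18 (Mpo), and Cebpe by 0.91.

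**Figure D4:**
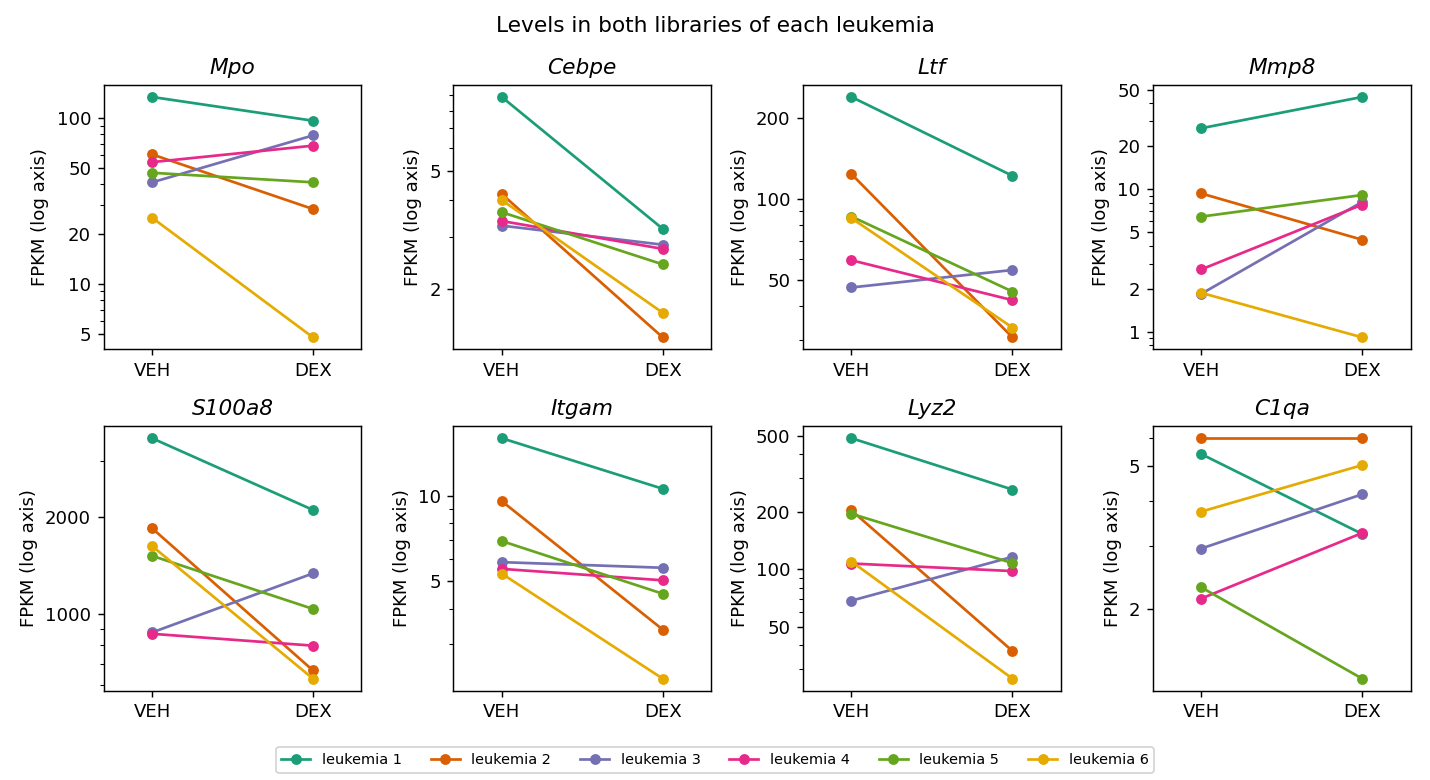
FPKM (log axis, scaled to each gene) of 8 members in the VEH and DEX library of each leukemia, joined by a line. Cebpe and Itgam are lower with DEX in all 6 leukemias, Mpo and Mmp8 are higher in some and lower in others, and leukemia 1 is the highest for most genes.

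In the secondary granules, Ltf fell, Camp came close to the threshold and Mmp8 was higher in more leukemias than it was lower. Ltf encodes lactoferrin, an iron-binding antimicrobial protein (ENSMUSG00000032496, chromosome 9, 111019271 to 111042767). It was at 239, 124, 47.0, 59.2, 86.0 and 84.8 FPKM in VEH and at 122, 30.7, 54.5, 42.15, 45.35 and 33.4 FPKM in DEX. It was lower in 5 of 6 leukemias and higher in leukemia 3, with overlapping groups and a difference of -0.91 ± 0.23 (SE, adjusted p = 0.034). Camp, which encodes the cathelicidin antimicrobial peptide, was at 661, 314, 201, 177, 242.9 and 291 FPKM in VEH and at 319, 98.0, 227, 161, 159 and 96.5 FPKM in DEX. It was lower in the same 5 leukemias and did not pass (-0.81 ± 0.24, adjusted p = 0.052). Without leukemia 1, 2, 4, 5 or 6 the adjusted p of Ltf was 0.0878, 0.0636, 0.0554, 0.0890 and 0.0769.

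The other genes of this group were lower in 4 leukemias and higher in leukemias 3 and 4, apart from Mmp8. Ngp, a granule protein related to the cathelicidins, was at 686, 350.5, 196, 169, 252 and 261.7 FPKM in VEH and at 447, 133, 255, 207 and 127.2 FPKM in the DEX libraries of leukemias 1, 2, 3, 5 and 6, and it was higher by 0.24 in leukemia 4 (-0.45 ± 0.22, adjusted p = 0.20). Chil3, which encodes the chitinase-like protein Ym1, was at 599.5, 290.0, 151, 142.6, 256 and 210.0 FPKM in VEH and at 563, 146, 248, 215, 239 and 82.6 FPKM in DEX (-0.20 ± 0.26, adjusted p = 0.63). Ngp and Chil3 were both highest in leukemia 1 under each treatment, and their groups overlapped. Lcn2, the siderophore-binding lipocalin (-0.29, adjusted p = 0.40), and Cd177, a neutrophil surface protein (-0.48, adjusted p = 0.093), did not pass either.

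Mmp8 encodes the neutrophil collagenase. It was at 26.75, 9.32, 1.84, 2.73, 6.41 and 1.87 FPKM in VEH and at 44.35, 4.41, 8.13, 7.78, 9.09 and 0.91 FPKM in DEX. It was higher with DEX in leukemias 1, 3, 4 and 5 and lower in leukemias 2 and 6, and it did not pass (0.43 ± 0.32, adjusted p = 0.40). Set against Ltf in the same library, a pair chosen after the values were seen, the log2 ratio of Mmp8 to Ltf was higher with DEX in 6 of 6 leukemias. The change in that ratio was 1.38 ± 0.66 (SD, n = 6), from 0.31 in leukemia 6 to 2.00 in leukemia 4. It is a description without a test, and it shows unequal change of the pair, not which of them moved.

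Of the mature neutrophil genes, Itgam fell and 10 of the 11 tested did not pass, where 9.28% of all genes tested fell. Itgam encodes CD11b, the alpha chain of the integrin Mac-1 (ENSMUSG00000030786, chromosome 7, 128062640 to 128118491). It was at 16.0, 9.58, 5.84, 5.53, 6.93 and 5.32 FPKM in VEH and at 10.6, 3.38, 5.58, 5.04, 4.52 and 2.27 FPKM in DEX. It was lower in 6 of 6 leukemias, although in leukemias 3 and 4 only by 0.06 and 0.11, and the groups overlapped. A fall in 6 of 6 held for 2 of 35 members (5.71%) and for 13.7% of all genes tested. The difference was -0.58 ± 0.16 (SE, adjusted p = 0.045), and the adjusted p was 0.0519 to 0.107 with leukemia 1, 2, 4, 5 or 6 left out.

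S100a8 and S100a9, the chains of calprotectin, were the most abundant members. S100a8 was at 3521, 1848, 876, 867, 1516 and 1627 FPKM in VEH and at 2106, 667, 1337, 797, 1037 and 629 FPKM in DEX (-0.61 ± 0.25, adjusted p = 0.13). S100a9 was at 3232, 1619, 808, 855, 1185 and 1359 FPKM in VEH and at 1872, 587, 1139.6, 782, 800.2 and 552 FPKM in DEX (-0.62 ± 0.23, adjusted p = 0.11). Both were lower in 5 leukemias and higher in leukemia 3, with overlapping groups. Their ratio hardly moved: the log2 ratio of S100a8 to S100a9 changed by 0.02 ± 0.06 (SD, n = 6), between -0.07 and 0.11.

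Anxa1 encodes annexin A1, known as a protein that glucocorticoids induce and that limits neutrophil migration. It was at 109, 57.2, 30.3, 28.7, 44.6 and 43.5 FPKM in VEH and at 69.4, 21.75, 36.7, 28.4, 31.1 and 18.2 FPKM in DEX. It was lower in 5 leukemias and higher in leukemia 3, and did not pass (-0.58 ± 0.20, adjusted p = 0.092). Fpr2, a receptor for annexin A1 and for formyl peptides, was at 5.0 to 27.35 FPKM in VEH and at 3.23 to 23.65 FPKM in DEX (-0.31, adjusted p = 0.38).

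The receptors for the chemokines that draw neutrophils out of the marrow and for their growth factor were low and did not pass. Cxcr2, the receptor for CXCL1 and CXCL2, was at 8.54, 6.36, 3.33, 4.53, 4.94 and 3.57 FPKM in VEH and at 6.54, 4.92, 3.39, 3.53, 4.77 and 3.62 FPKM in DEX (-0.16 ± 0.09, adjusted p = 0.27). Csf3r, the receptor for G-CSF, was at 7.45, 4.06, 1.36, 2.35, 2.61 and 2.00 FPKM in VEH and at 4.93, 1.28, 2.19, 1.55, 1.67 and 0.77 FPKM in DEX (-0.47 ± 0.18, adjusted p = 0.12). Both groups overlapped. Ly6g, an antigen of the Gr-1 antibody, was at 9.73, 5.09, 1.27, 0.60, 2.06 and 0.97 FPKM in VEH and at 2.68, 0.70, 2.25, 1.0, 1.96 and 1.15 FPKM in DEX. Ly6g was lower by 1.54 and 1.84 in leukemias 1 and 2 and within 0.52 of its VEH level in the others (-0.41 ± 0.32, adjusted p = 0.42).

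Mmp9 (gelatinase B, -0.44, adjusted p = 0.097), Itgb2l, an integrin chain (-0.42, adjusted p = 0.15), and Retnlg, a resistin-like protein (0.01, adjusted p = 0.99), completed the tested genes of this group. Retnlg ranged from 7.67 to 105 FPKM in VEH and from 5.06 to 99.65 FPKM in DEX, and its difference turned negative when values were rescaled to TPM (-0.11). Fpr1, a formyl peptide receptor, reached 4.08 FPKM and Trem1, an activating receptor, 1.97 FPKM, each in the VEH library of leukemia 1.

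Of the monocyte and macrophage genes, 0 of 11 tested passed in either direction with limma, where 9.28% of all genes fell and 4.27% rose. At an unadjusted p under 0.05, 1 of the 11 was lower (Lyz2) and 0 higher, against 20.5% and 9.69% of all genes. The median difference of the 11 was -0.15. Lyz2, the lysozyme gene of monocytes, macrophages and neutrophils, was at 486.5, 203, 68.5, 107, 195 and 109.8 FPKM in VEH and at 261.8, 37.3, 116.2, 97.9, 108 and 26.7 FPKM in DEX. It was lower in 5 leukemias, by 2.42 in leukemia 2 and 2.00 in leukemia 6, and higher by 0.75 in leukemia 3 (-0.92 ± 0.36, adjusted p = 0.12). Ly6c2, an antigen of inflammatory monocytes, was at 101, 46.6, 30.4, 31.9, 62.7 and 22.7 FPKM in VEH and at 89.6, 23.0, 64.4, 54.8, 51.55 and 6.73 FPKM in DEX (-0.20 ± 0.31, adjusted p = 0.69). Ly6c2, like Mpo, was higher in leukemias 3 and 4 and lowest in the DEX library of leukemia 6.

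Tyrobp, the adaptor DAP12, was at 73.6, 33.75, 18.5, 19.5, 29.9 and 20.0 FPKM in VEH and at 63.4, 19.95, 35.3, 25.85, 28.0 and 8.20 FPKM in DEX (-0.16 ± 0.23, adjusted p = 0.69). Csf1r, the receptor for CSF1, was at 6.93, 3.85, 1.46, 1.96, 2.62 and 1.12 FPKM in VEH and at 5.90, 2.57, 2.03, 2.10, 1.40 and 1.08 FPKM in DEX (-0.15 ± 0.13, adjusted p = 0.47). Both were highest in leukemia 1 under each treatment, with overlapping groups. C1qa, a complement chain made by macrophages, was at 5.41, 5.99, 2.95, 2.14, 2.30 and 3.74 FPKM in VEH and at 3.24, 5.99, 4.18, 3.26, 1.28 and 5.04 FPKM in DEX (0.01 ± 0.16, adjusted p = 0.98). C1qa and its partner C1qb (0.08, adjusted p = 0.73) were highest in leukemia 2, not leukemia 1, and in leukemia 6 they were higher with DEX by 0.35 and 0.07, where Lyz2 and Ly6c2 were lower by 2.00 and 1.62. Under rescaling to TPM both had differences below 0 (-0.09 and -0.03).

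Ccr2, the receptor for CCL2, was at 1.91 to 14.95 FPKM in VEH and at 0.46 to 11.8 FPKM in DEX (-0.38, adjusted p = 0.31). The Fc receptor genes Fcgr3 (-0.28) and Fcer1g (-0.11), the lysosomal gene Cd68 (-0.08) and the perforin-like gene Mpeg1 (-0.00, and 0.04 with median-of-ratios scaling) had adjusted p-values of 0.43, 0.77, 0.69 and 0.99. Cd14, the co-receptor for endotoxin, stayed at or under 2.07 FPKM and Cx3cr1, the fractalkine receptor, at or under 1.87 FPKM. Adgre1 was at 0.44 to 1.55 FPKM in VEH and at 0.42 to 1.74 FPKM in DEX. The defining genes of tissue macrophages (Adgre1, C1qa and C1qb) thus stayed at or under 7.17 FPKM in every library, where Lyz2 reached 486.5 FPKM.

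To see which members moved more or less than the rest, each difference was set against the mean of the 35 tested members in the same leukemia. That mean was -0.51, -1.02, 0.55, 0.18, -0.34 and -0.93 in leukemias 1 to 6. Ltf, Camp, S100a9, Itgam and Anxa1 were below it in 6 of 6 leukemias, Ltf by 0.34 to 0.95 and Camp by 0.26 to 0.65. Mmp8, Mpeg1 and Fcer1g were above it in 6 of 6, Mmp8 by 0.09 to 1.22. The mean over each stage gave little order between the groups. It was -0.43 ± 0.84 for the primary granule stage, -0.39 ± 0.73 for the secondary granules, -0.38 ± 0.53 for mature neutrophils and -0.18 ± 0.47 for monocytes and macrophages (SD, n = 6 leukemias), with an SD larger than the mean in each. Single leukemias moved these means by over 1.5 times. The primary granule mean was -0.17 without leukemia 6 and -0.64 without leukemia 3, and the secondary granule mean was -0.20 without leukemia 2 and -0.24 without leukemia 6. The mature neutrophil mean was -0.24 without leukemia 2, and the monocyte and macrophage mean was -0.088, -0.32 and -0.11 without leukemia 2, 3 and 6. On this scale genes near 1 FPKM can move less than abundant ones, and these values are a description without a test.

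**Figure D5:**
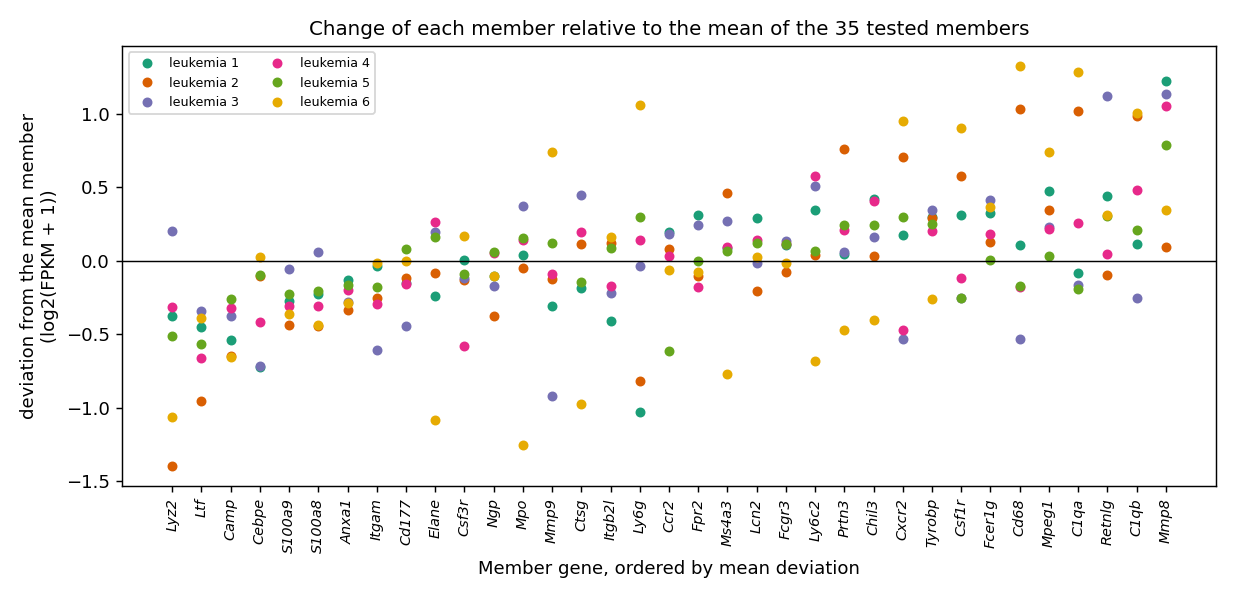
Difference of each of the 35 tested members minus the mean member difference of the same leukemia, in log2(FPKM + 1), with 1 point per leukemia and genes ordered by their mean. All 6 points of Ltf and Camp lie below 0 and all 6 of Mmp8 above it, and leukemia 6 has the widest spread.

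More members passed the test between leukemias than between treatments. With limma's F test on the leukemia terms, 27 of 35 members differed (77.1%), against 51.1% of all genes tested. Leukemia 1 was the highest of the VEH libraries for 37 of 39 members and of the DEX libraries for 35, and the others were highest in leukemia 2 or 3. In the DEX libraries, leukemia 6 was the lowest for 31 of 39. Csf1r (range over leukemia means 1.82, adjusted p = 0.0024), Mmp9 (2.55, adjusted p = 0.0012), Retnlg (3.78, adjusted p = 0.0047), Mmp8 (3.92, adjusted p = 0.0060) and Cxcr2 (0.96, adjusted p = 0.0063) had the smallest adjusted p-values. Cebpe (0.87, adjusted p = 0.15) and Ly6g (1.81, adjusted p = 0.14) did not pass. The count rests on leukemia 1: without it 4 members differed (Ctsg, Ccr2, C1qa and C1qb), where 42.6% of all genes still did. In VEH, leukemia 1 also had the lowest T-lineage sum (2068 FPKM) and the highest sum of the stem and progenitor list (22.0 FPKM, against 0.43 to 7.41 FPKM), and the part of these in the result was not tested.

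Other genes of the pathway came from lists fixed by name, and their counts stand against 4.27% of all genes tested that rose and 9.28% that fell. Of 17 tested genes in the list of further granule genes, 1 rose, 1 fell and 15 did not pass (median -0.27). The fall was Cybb, the catalytic chain of the phagocyte NADPH oxidase, at 39.5, 20.95, 7.41, 9.56, 16.2 and 11.2 FPKM in VEH and at 20.55, 6.44, 7.98, 8.11, 10.75 and 4.15 FPKM in DEX (-0.73 ± 0.20, adjusted p = 0.044). The rise was Ctsd, a lysosomal protease made in most cells (0.41 ± 0.08, adjusted p = 0.013). Cybb was lower in the same 5 leukemias as Ltf, and Ctsd was higher in 6 of 6.

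The list of myeloid transcription factors had 8 tested genes, of which 1 rose, 3 fell and 4 stayed above the threshold (median -0.11). Runx1 (-0.63), Id2 (-0.48) and Gfi1 (-0.40), which T-lineage cells express too, fell, and Nfil3 (0.55) rose. Cebpa (0.24, adjusted p = 0.26), Cebpb (0.35, adjusted p = 0.080) and Spi1, which encodes PU.1 (-0.09, adjusted p = 0.70), did not pass, so of the C/EBP genes tested Cebpe was the 1 called. In the list of neutrophil trafficking genes, Itgb2, the partner chain of CD11b, fell by 0.31 (adjusted p = 0.036), and Cxcr4, the receptor that holds neutrophils in the marrow, did not pass (0.10, adjusted p = 0.33). Neither had the order of most members in VEH, where leukemia 1 was highest. In that library Cxcr4 was at its lowest VEH level (124.2 FPKM). Itgb2 stood there at 98.8 FPKM, against 16.0 FPKM for Itgam, and was higher in leukemias 3 and 5. Which cells the Itgb2 and Cxcr4 transcripts came from was not tested. Of the trafficking list, 6 genes, among them the chemokine genes Cxcl1 and Cxcl2, stayed below 1 FPKM in every library.

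Il1r2 was the 1 gene of the myeloid inflammatory and glucocorticoid-responsive list that rose. It encodes the decoy receptor for interleukin 1, known to be induced by glucocorticoids in neutrophils and monocytes. It was at 1.71, 1.96, 1.09, 0.69, 1.47 and 1.21 FPKM in VEH and at 10.8, 4.48, 4.46, 4.55, 7.48 and 1.36 FPKM in DEX. It was higher in 6 of 6 leukemias, although hardly in leukemia 6 (1.33 ± 0.24, adjusted p = 0.0094). Most members were lower in leukemia 6, and also in leukemias 1 and 5, where Il1r2 reached 10.8 and 7.48 FPKM with DEX. Tnf, a cytokine gene that T cells also express, fell by 0.74 (adjusted p = 0.0036), and Mrc1 did not pass (0.07, adjusted p = 0.79). The other 8 genes of that list were too low to be tested.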

How the data were processed

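Total RNA of marrow was sequenced as stranded libraries with paired reads of 100 bp, per the labels' protocols. The authors deposited FPKM on a linear scale with 2 decimals. In the submitters' processing notes, RSEM, edgeR and Bowtie2 (version 2) are listed with no role, and the build is mm10, while the annotation version and filters are not given in the sources used here. Ly6c2, Ly6g, Chil3, Fcgr3, Fpr1 and Fpr2 have close paralogs, so their values are uncertain where the authors' counting could split reads. FPKM are not counts, so no count test was used.

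The members and gene lists were chosen with earlier results of these data known. Coordinates came from GENCODE M21 (GRCm38, which mm10 also is), where 37693 of 38339 Ensembl identifiers were found. Values were taken as log2(FPKM + 1), and 12358 genes with at least 1 FPKM in at least 6 of 12 libraries were tested in limma 3.58.1 (R 4.3.3; lmFit, eBayes with trend, 5 residual degrees of freedom), with leukemia as a block and treatment as a term, two-sided, Benjamini-Hochberg threshold 0.05. Leukemia terms were tested with an F test. Pairs share a leukemia code in their titles. After removal of group means, libraries of a pair correlated across genes at 0.55 to 0.82 and others at up to 0.21. The method was tested on simulated data. The depth estimate rests on the FPKM that 1 fragment gives in short, sparse genes, with fragments of 150 bp assumed. Values were given for every library for the 3 most abundant members of each stage, each member past the threshold and 11 members fixed by name. Mmp8 and the genes of other lists were named after their values were seen. Ahsp, of the erythroid list, was not matched. The count of called genes in the list of trafficking genes is not reported here. Alternatives were other pseudocounts, filters, scalings and variance models, no block, and each leukemia left out.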

Additional observations from a re-analysis of the deposited data

Results flagged for a closer look

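In 117 groups of 6 values (the levels under VEH, the levels under DEX and the paired differences of the 35 tested members and of the 4 stage means), the highest or lowest value was compared with its nearest neighbour by Dixon's ratio. Chance alone marks about 1 group in 20, and 4 were found. On the scale of log2(FPKM + 1), Prtn3 stood at 2.58 in the DEX library of leukemia 6, and the next value was 4.28. Cebpe stood at 3.31 in the VEH library of leukemia 1, with the next at 2.38. Ms4a3 was at 4.66 in the same library, with the next at 3.79. Mmp9 was at 3.46 in the DEX library of leukemia 1, with the next at 2.03. Leukemia 1 had the highest library for most members, and the DEX library of leukemia 6 the lowest of its group for 31 of 39.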

How the results depend on the processing

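No member was called higher under any alternative. The members called lower, 3 as reported, were 0 with no filter beyond a value above 0 (27663 genes tested), 1 with a filter on the mean, and 0 to 9 with 1 leukemia left out. The pairs share a leukemia by their codes, and without the replicate block 0 members were called lower, with 35 genes higher and 46 lower. Genes called higher and lower, 528 and 1147 as reported, were 181 and 370 with no filter, 261 and 1889 after rescaling to TPM, 681 and 753 with median-of-ratios scaling, and 234 to 537 and 420 to 1035 with 1 leukemia left out. Members differing between leukemias, 27 as reported, were 10 with no filter (25.6% of 39, against 21.1% of all genes) and 4 to 32 of 35 with 1 leukemia left out (11.4% without leukemia 1, against 42.6% of all genes, and 91.4% without leukemia 3, against 44.8%). The mean difference of each stage stayed below 0 in the alternatives run for it.

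Of 525 values of single members under the alternatives, 471 kept their direction and side of the threshold, 25 lost a call, 7 gained one and 22 changed sign; no changed sign was of a called member. C1qa was at -0.0044 with pseudocount 0.1, -0.088 as TPM and -0.078 to 0.13 with 1 leukemia left out (below 0 without 3, 4 or 6). Mpeg1 was at 0.043 with median-of-ratios scaling, 0.017 with quantile normalization and -0.16 to 0.13 with 1 left out (above 0 without 1, 2, 5 or 6). Retnlg was at -0.11 as TPM and -0.32 to 0.23 (below 0 without 3 or 4), and C1qb at -0.033 as TPM and -0.039 to 0.17 (below 0 without 4). With 1 leukemia left out, Fcer1g ranged from -0.32 to 0.049 (above 0 without 2) and Cd68 from -0.18 to 0.0052 (without 5). Prtn3 (-0.37 to 0.036), Chil3 (-0.38 to 0.025), Ly6c2 (-0.46 to 0.078) and Tyrobp (-0.37 to 0.05) were above 0 without leukemia 6. The cause was not tested. Camp passed as TPM (adjusted p = 0.034 with limma) and without leukemia 3 (0.026). Cebpe was called in 9, Ltf in 7 and Itgam in 4 of 15 alternatives. Depth limits the members near 1 FPKM, and FPKM alone give no counting interval.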
